A study of Musca domestica with 8 samples.

Results

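Sex determination in the housefly, *Musca domestica*, runs through a chain of RNA-splicing factors. The gene *transformer* is the switch: its full-length protein keeps itself on and is made in females, whereas in males a dominant male determiner blocks this loop and the transcripts carry early stop codons. *Transformer-2* encodes an RNA-binding partner needed for the female splice, *doublesex* and *fruitless* are the downstream transcription factors spliced differently in the sexes, and *intersex* encodes a Mediator subunit that in *Drosophila* works together with the female Doublesex protein. *Sex-lethal*, the master switch of *Drosophila*, encodes an RNA-binding protein that is not known to decide the sex of a housefly.

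The contigs of these genes were found by the words of the deposited annotation, which had to hold transformer, doublesex, Sex-lethal, fruitless or intersex in any case. This gave 10 of the 35834 contigs of the assembly. There were 5 for *transformer* and 1 each for *transformer-2*, *Sex-lethal*, *intersex* and *fruitless*. The other one, M_dom_rep_c35337 (1325 bp), matched a transformer-2 beta-like protein of the fish *Oreochromis niloticus* and was kept apart. No contig is annotated as *doublesex*. An annotation can only find a gene that its best match names: 5280 contigs have no annotation, and 69.4% of the 30554 annotated ones carry only a gene model number or the word hypothetical, uncharacterized or unnamed. A housefly *doublesex* contig may stand under such an entry.

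All 8 samples, No.1 to No.8, are labelled as the spinosad-resistant strain 791spin, obtained by spinosad selection of the multi-resistant strain 791a. By the labels they are whole adult flies of 5 to 7 days, males and females pooled, about 60 flies to a pool, with sugar as food. The description of the series also speaks of a susceptible strain, but no sample is labelled as one, so whether any of the 8 is of another strain cannot be told from the labels. Since the labels give 1 condition, no comparison of labelled groups could be made, and where No.2 or the even-numbered samples are set beside the others this describes the order of the samples. In ground whole flies fewer cells of a type and less RNA per cell cannot be told apart.

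Totals lay between 10266664 counts in No.6 and 16115208 in No.1. Counts were scaled to 1000000 per sample (CPM), and 3 counts, taken as the detection limit, were 0.186 to 0.292 CPM. The samples share the label of pooled males and females but are not alike in markers of sex. The 31 contigs annotated as yolk protein or vitellogenin, made in the female fat body and ovary, summed to 207, 2811, 1827 and 3935 CPM in No.2, No.4, No.6 and No.8 and to 20.2, 7.76, 126 and 29.6 CPM in No.1, No.3, No.5 and No.7. The 7 contigs of chorion and vitelline proteins, from the follicle cells of the ovary, summed to 397 CPM in No.8, to 27.0 CPM in No.6 and to at most 1.79 CPM elsewhere. Words chosen for testis, sperm and seminal fluid found 2 contigs, matched to a mammalian sperm-associated antigen and a beetle sperm-specific ion exchanger. They summed to 76.5 CPM in No.2 as the lowest and 329 CPM in No.8 as the highest sample. The antigen match held 18770 of their 19207 counts. The ion exchanger match was highest in No.4 (7.08 CPM) and lowest in No.5 (3.08 CPM). No defining male marker annotated from a fly was found with these words. Whether the mix of the sexes differed between the pools was not tested, nor was the part of these marker differences in the results below.

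The switch gene *transformer* had 832 counts in all. Its counts from No.1 to No.8 were 88, 274, 79, 101, 50, 83, 63 and 94. Scaled to the totals these were 5.46, 18.9, 7.57, 9.53, 4.81, 8.08, 5.42 and 8.57 CPM, with a mean of 8.55 ± 4.52 CPM (SD, n = 8). No.2 stood at 1.99 times the next sample, No.4. The exact 95% Poisson interval of No.2, 16.7 to 21.3 CPM, lay above that of No.4, 7.76 to 11.6 CPM. The 4 even-numbered samples were the 4 highest, but only just, since the lowest of them (No.6, 8.08 CPM) and the highest odd-numbered sample (No.3, 7.57 CPM) have overlapping intervals. Of the 7 member contigs that averaged 5 or more counts, 2 showed this order, against 8.05% of the 23597 contigs of the assembly at that level. They were M_dom_rep_c7144 and M_dom_rep_c25572 of *transformer*, and M_dom_rep_c25572 reached that level only through the even-numbered No.2, so its order is no support. The summed yolk contigs had this order as well, as did 17 of the 22 yolk contigs at that level taken singly, and their part in the order of *transformer* was not tested.

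Its partner *transformer-2*, the contig M_dom_c149 (1895 bp) annotated from *M. domestica*, had 51, 224, 44, 57, 31, 43, 55 and 74 counts in No.1 to No.8, or 3.16, 15.5, 4.22, 5.38, 2.98, 4.19, 4.73 and 6.74 CPM. The mean was 5.86 ± 4.06 CPM (SD, n = 8). No.2 was again the highest, at 2.29 times No.8, the next sample. Without No.2 the mean was 4.49 ± 1.30 CPM (SD, n = 7), so that this 1 sample carried most of the spread.

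The RNA-binding gene *Sex-lethal*, on the contig M_dom_c1290 (1525 bp) annotated from the housefly homolog, had the widest span between its extremes. It had 74, 183, 47, 58, 12, 45, 21 and 67 counts in No.1 to No.8. These were 4.59, 12.6, 4.50, 5.47, 1.15, 4.38, 1.81 and 6.11 CPM, with a mean of 5.08 ± 3.49 CPM (SD, n = 8). No.2 was the highest, and No.5 and No.7 were the lowest, so that the extremes differed 10.95-fold, against 3.94-fold for *transformer*, 5.19-fold for *transformer-2* and 3.55-fold for *intersex*. The Poisson intervals of No.5 (0.596 to 2.02 CPM) and No.7 (1.12 to 2.76 CPM) lay below those of all other samples, the lowest of which began at 3.20 CPM in No.6.

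The Mediator subunit gene *intersex*, on M_dom_rep_c7233 (846 bp) with a best match in *Glossina morsitans morsitans*, had the narrowest span between its extremes. Its counts were 47, 150, 47, 64, 41, 75, 66 and 60 in No.1 to No.8, or 2.92, 10.4, 4.50, 6.04, 3.94, 7.31, 5.68 and 5.47 CPM. The mean was 5.78 ± 2.29 CPM (SD, n = 8). No.2 led here too, at 1.42 times No.6, and No.1 was the lowest.

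**Figure D1:**
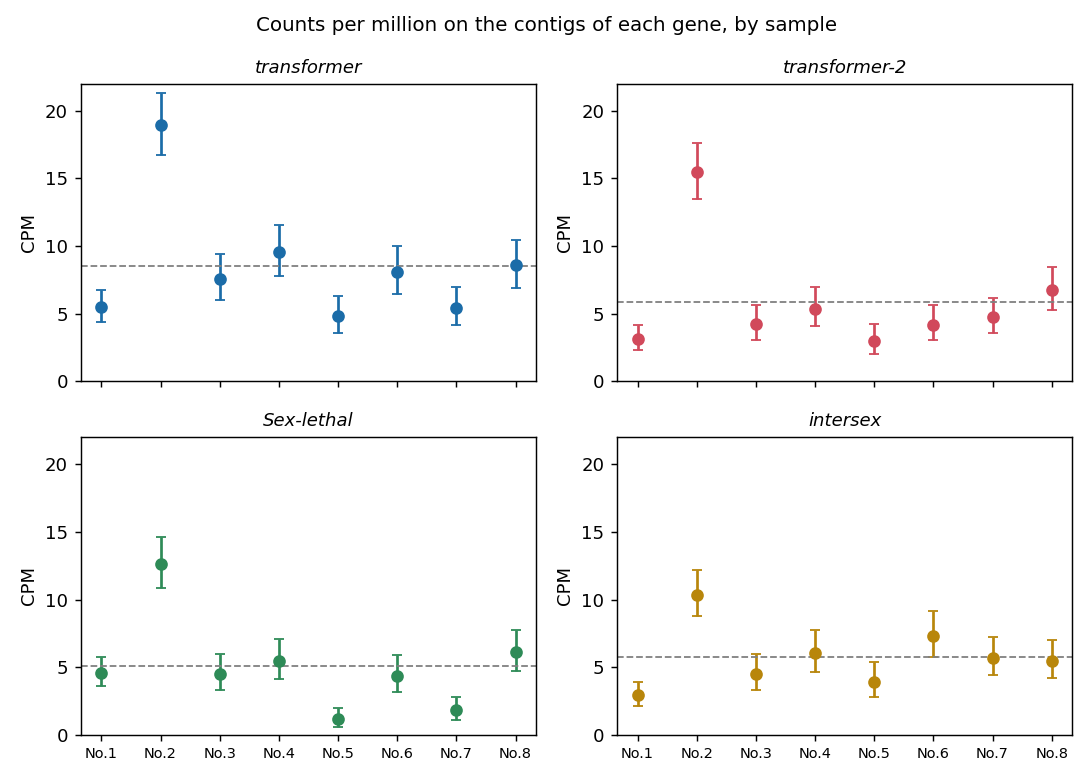
Scaled counts (CPM, linear axis) on the contigs of *transformer*, *transformer-2*, *Sex-lethal* and *intersex* in the 8 samples. Points are samples, bars are exact 95% Poisson intervals that cover counting error only, and the dashed line is the mean of the 8 samples. No.2 is the highest sample in each panel, and *Sex-lethal* is lowest in No.5 (1.15 CPM) and No.7 (1.81 CPM).

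The gene *fruitless*, which directs male courtship behaviour in *Drosophila*, was represented by M_dom_rep_c21408 (442 bp), matched to the type C protein of *Drosophila silvestris*. It had 0 counts in all 8 samples, which allows up to 0.0316 CPM over the summed totals of 94888508 counts and 0.186 to 0.292 CPM in a single sample. No expression was thus detected on this contig at this depth. Contigs without counts were not rare, since 27024 (No.5) to 29738 (No.2) of the 35834 contigs had counts in a given sample. The transformer-2 beta-like contig had 24 counts in all, 10 of them in No.2, none in No.7 and 1 to 4 in each of the others. Its mean was 0.236 ± 0.210 CPM (SD, n = 8), near the detection limit.

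Whether a contig varied between samples by more than counting error was asked with a chi-square test of its counts against the samples' shares of the totals, adjusted by the Benjamini-Hochberg method over all contigs that averaged 5 or more counts. All 7 contigs of this pathway that reached that level were called, with adjusted p between 6.4e-53 for *transformer-2* and 0.000445 for the *transformer* contig M_dom_rep_c12587. The same test called 95.1% of all 23597 contigs, so variation of this kind was the rule in these samples and nothing particular to these genes. Of the 7, M_dom_rep_c20826 and M_dom_rep_c25572 reached that level only through No.2. With No.2 left out the other 5 were tested and 5 were called, with adjusted p from 9.18e-10 (*Sex-lethal*) to 0.000603 (M_dom_rep_c12587), where 90.3% of all 23007 contigs tested were called. The coefficient of variation, the SD as a percentage of the mean, was 52.9% for *transformer*, 69.4% for *transformer-2*, 68.8% for *Sex-lethal* and 39.6% for *intersex*, and the median over the 11890 contigs averaging 50 or more counts was 44.5%. Without No.2 it was 25.8%, 29.0%, 45.9% and 28.4%, against a median of 37.9% over 11376 contigs, so only *Sex-lethal* was then above the median.

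No.2 had the highest CPM of *transformer*, *transformer-2*, *Sex-lethal* and *intersex*, under total counts, TMM and DESeq2 size factors alike. It was also the highest sample for all 7 tested contigs, where 29.0% of all tested contigs were highest in No.2. For M_dom_rep_c12587 this rests on 1.31 CPM against 1.30 CPM in No.1, and the 2 contigs that passed through No.2 alone had to be highest there. The level in No.2 was 3.67 times the median of the other 7 samples for *transformer-2*, 2.81 times for *Sex-lethal*, 2.50 times for *transformer* and 1.89 times for *intersex*. A value of at least 2 was found for 26.3% of all tested contigs. The median over all tested contigs was 1.02, with quartiles of 0.476 and 2.06. Since CPM are scaled to the total of each sample, this median cannot show whether No.2 was shifted as a whole. Yolk contigs did not follow this order, with 207 CPM in No.2 and 3935 CPM in No.8.

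**Figure D2:**
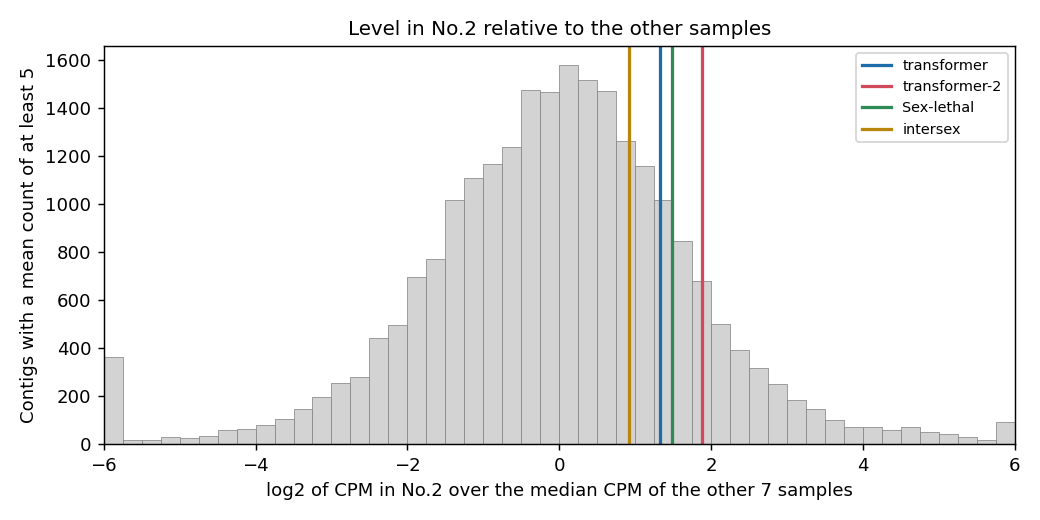
Histogram of the log2 of the CPM in No.2 over the median CPM of the other 7 samples, for contigs averaging 5 or more counts (values beyond 6 on either side stand in the outermost bars, and contigs with a median of 0 are left out). Vertical lines mark the 4 genes, which lie between 1.89-fold (*intersex*) and 3.67-fold (*transformer-2*), to the right of the median contig at 1.02-fold.

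Shares within the summed counts of the 4 genes do not depend on the totals. *Transformer* kept a share of 30.7% (No.7) to 37.3% (No.5), with overlapping 95% Wilson intervals in all samples. The share of *Sex-lethal* was 8.96% in No.5 (95% Wilson interval 5.20% to 15.0%) and 10.2% in No.7 (6.80% to 15.2%), and in the other samples it ran from 18.3% in No.6 (14.0% to 23.6%) to 28.5% in No.1 (23.3% to 34.2%). Both low values thus lie outside the intervals of the other 6 samples, but their intervals overlap that of No.6. The share of *intersex* was 30.6% in No.5, 30.5% in No.6 and 32.2% in No.7, against 18.1% in No.1 and No.2. It was 20.3% to 22.9% in No.3, No.4 and No.8. The shares of a sample add up to the whole, so a low share of *Sex-lethal* raises the others. In CPM *intersex* was not above its mean of 5.78 in No.5 (3.94) and No.7 (5.68), but was in No.6 (7.31). *Transformer-2* took 17.5% (No.6) to 27.0% (No.2).

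**Figure D3:**
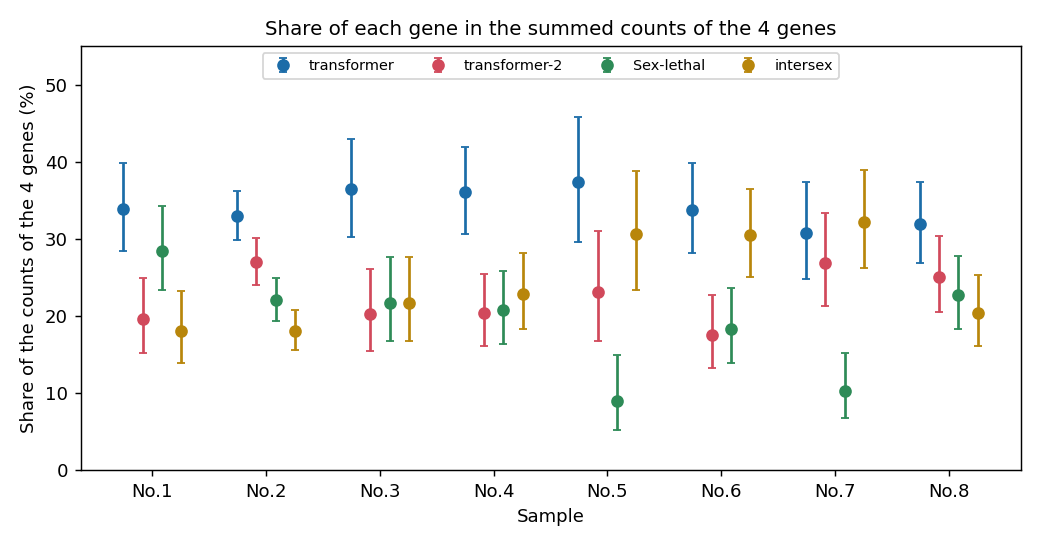
Share (%) of *transformer*, *transformer-2*, *Sex-lethal* and *intersex* in the summed counts of the 4 genes, for each sample. Points are shares and bars 95% Wilson intervals, which cover counting error only. The *Sex-lethal* share drops to 8.96% in No.5 and 10.2% in No.7, whereas the *transformer* share stays between 30.7% and 37.3%.

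Levels of different genes were compared per length, on the contig with the most counts of each gene. *Intersex* was the highest with 6.83 ± 2.70 RPKM (CPM per kilobase, SD, n = 8), above each of the other genes in 8 of 8 samples. It was followed by *transformer* with 3.98 ± 1.73 RPKM on M_dom_rep_c7144, *Sex-lethal* with 3.33 ± 2.29 RPKM and *transformer-2* with 3.09 ± 2.14 RPKM. These 3 did not separate beyond their spread. The lead of *intersex* rests on the length scaling, which is the same in every sample, and its contig is the shortest (846 bp). In CPM the means of these contigs were 6.56 for *transformer*, 5.86 for *transformer-2*, 5.78 for *intersex* and 5.08 for *Sex-lethal*. Over the summed length of its 5 contigs, 6465 bp, *transformer* had 1.32 ± 0.699 RPKM (SD, n = 8), below the means of the other genes. Its rank thus depends on the contigs taken. On the main contigs *Sex-lethal* exceeded *transformer* in 2 samples, No.1 and No.2, and *transformer-2* exceeded *transformer* in No.2 only. *Sex-lethal* exceeded *transformer-2* in 6 of 8 samples. The ratio of *Sex-lethal* to *transformer* on these contigs ran from 0.289 in No.5 to 1.38 in No.1. M_dom_rep_c7144 held its lowest shares of the *transformer* counts in No.1 (65.9%) and No.2 (65.3%). The orders with *transformer* in these samples thus leave out the counts on its other contigs. By mean CPM the main contigs of the 4 genes stood above 67.7% to 71.8% of all contigs with counts. These ranks, unlike the levels above, are not scaled by contig length. The labels describe a normalized cDNA library, in which abundant transcripts are lowered, and if the counted libraries were of this kind these ranks are not ranks of abundance.

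The 5 contigs of *transformer* all match the same housefly protein, which is spliced differently in the sexes. The deposited file does not show whether they are splice forms, alleles or pieces of 1 transcript, nor whether a read was counted on more than 1 of them. M_dom_rep_c7144 (1650 bp) held 75.4% of the counts, with 3.60, 12.4, 5.65, 7.55, 4.33, 7.01, 4.13 and 7.84 CPM in No.1 to No.8. On this contig the even-numbered samples were again all above the odd-numbered, by 7.01 CPM in No.6 against 5.65 CPM in No.3. The longest contig, M_dom_rep_c12587 (2953 bp), held 9.38% of the counts and had 21, 19, 12, 10, 2, 4, 10 and 0 counts in No.1 to No.8. M_dom_rep_c20826 (815 bp) had 0, 39, 3, 6, 2, 3, 0 and 1 counts, and M_dom_rep_c25572 (495 bp) had 4, 32, 0, 5, 1, 3, 2 and 7 counts. Both had most of their 54 counts in No.2. The least counted, M_dom_rep_c29560 (552 bp), had 19 counts in 5 of the samples and none in No.4, No.5 and No.8.

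The contigs did not keep 1 ratio. The share of the *transformer* counts on M_dom_rep_c12587 was 23.9%, 6.93%, 15.2%, 9.90%, 4.00%, 4.82%, 15.9% and 0% from No.1 to No.8. Its 95% Wilson interval was 16.2% to 33.7% in No.1, and the 0 of 94 counts in No.8 allow up to 3.93%. The share on M_dom_rep_c7144 was 91.5% in No.8 (84.1% to 95.6%), 90.0% in No.5 (78.6% to 95.7%) and 65.9% in No.1 (55.5% to 74.96%). For the 4 contigs averaging 5 or more counts, a chi-square test of equal shares in all samples gave 114 on 21 degrees of freedom, with a Benjamini-Hochberg adjusted p of 2.7e-14 over all sets of contigs that share an annotation. Such a difference was called in 80.5% of the 2835 sets, and the chi-square per degree of freedom of 5.42 was close to their median of 5.44. Unequal ratios between contigs of 1 gene were therefore common in this table. Of the 4 contigs, M_dom_rep_c20826 and M_dom_rep_c25572 entered the test only through No.2, where they are high. Without No.2 the test held M_dom_rep_c7144 and M_dom_rep_c12587 alone and gave 37.7 on 6 degrees of freedom, with an adjusted p of 2.74e-06. Some expected counts are small, and with M_dom_rep_c7144 set against the other 4 contigs summed the adjusted p was 3.13e-07.

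**Figure D4:**
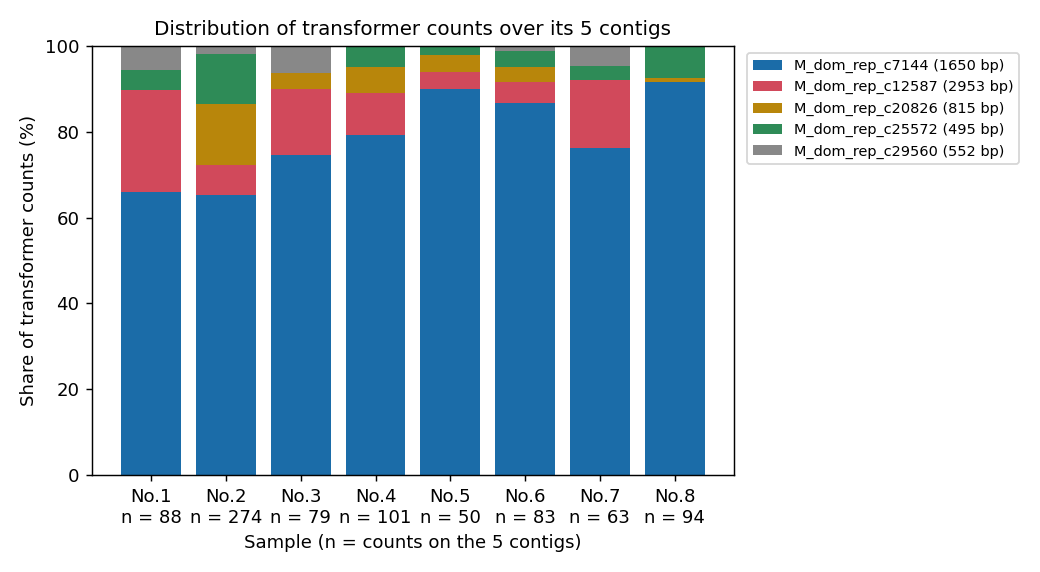
Share (%) of the *transformer* counts on each of its 5 contigs, as stacked bars for the 8 samples, with the number of counts under each bar. M_dom_rep_c7144 holds 65.3% (No.2) to 91.5% (No.8), M_dom_rep_c12587 holds 23.9% in No.1 and none in No.8, and M_dom_rep_c20826 and M_dom_rep_c25572 hold most in No.2.

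Other genes of the pathway were looked up in 4 lists of 26 names, and contigs were found for 4 of the names. *Female lethal d*, a splicing cofactor of *Sex-lethal* and *transformer* in *Drosophila*, had 2 contigs with 6.36 ± 1.88 CPM (SD, n = 8). Its highest value was 10.2 CPM in No.3 and not in No.2, which had 8.22 CPM. Contigs for male-specific lethal proteins, which raise X-chromosome expression in *Drosophila* males, had 22 counts in all, a mean of 0.209 CPM near the detection limit. The 4 takeout-like contigs had 54.6 ± 27.1 CPM. *Takeout* is a target of the sex determination genes in the male fat body of *Drosophila*. The sum of these contigs was lowest in No.2 (21.2 CPM) and highest in No.3 (90.0 CPM). The most counted of them, M_dom_c3897, was highest in No.5, with 72.7 CPM against 70.9 CPM in No.3. The ovo-like contigs, named for a regulator of the female germline in *Drosophila*, have their matches in the vertebrates *Sarcophilus harrisii* and *Oryzias latipes* and not in a fly. They had 18.6 CPM in No.2 and 1.44 to 5.94 CPM in the other samples. Of the 10 contigs, 7 reached a mean count of 5, and 7 varied between samples, as did 95.1% of all tested contigs. Among these 7, 1 was highest in No.2, the ovo-like contig M_dom_rep_c10335, against 29.0% of all tested contigs. No contig was annotated for the 22 other names, among them virilizer, sans fille and CWC22, the splicing factor from whose gene the housefly male determiner arose, and none of the 7 names of the early X signal was found.

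Among the 11886 other contigs averaging 50 or more counts, the profiles most like those of the 4 genes were sought over the 8 samples. Likeness was the root mean square difference between log2(CPM + 0.5) profiles, each centred on its mean. For *transformer* the nearest contigs differed by 0.08 to 0.12, where the median contig differed by 0.79. They included M_dom_rep_c5703, annotated as the proteasome subunit RPN5, and M_dom_rep_c9366, annotated as crossbronx. For *transformer-2* the range was 0.12 to 0.15, with M_dom_c2148, annotated as a zinc finger protein, among them. *Sex-lethal* had no profile closer than 0.22 and was nearest to contigs that include M_dom_rep_c13790 (SET, a phosphatase inhibitor) and M_dom_c24364 (nucleosome assembly protein 1). For *intersex* the nearest was M_dom_rep_c6011, a ubiquitin-specific protease, at 0.12. Of the 20 nearest contigs 14 carry only a gene model number, and 20 were highest in No.2.

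Among themselves the 4 genes were not the closest pairs. *Transformer* and *transformer-2* differed by 0.25, and 240 contigs (2.02%) were closer to *transformer* than *transformer-2* was. Seen from *transformer-2*, 94 contigs (0.791%) were closer than *transformer*. *Sex-lethal* and *intersex* were the least alike, at 0.71, and 45.5% of the contigs were closer to *intersex* than *Sex-lethal* was. Seen from *Sex-lethal*, 21.8% were closer than *intersex*. All profiles share the same 8 samples and the high value of No.2, so these distances describe the samples and are no test.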

How the data were processed

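The authors assembled contigs from pyrosequencing reads of 791spin with Newbler and MIRA and annotated them by BLASTX. They deposited unnormalized read counts for each contig in 8 samples, with contig lengths, an annotation and a scaled copy of the counts that was not used. The sources used here name neither the reads that were counted nor the program (not given). Columns were matched to samples by their titles.

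CPM were computed on total counts (10266664 to 16115208 per sample), and RPKM as CPM per kilobase. Members were found by annotation words; they and the lists were chosen with earlier results of these data known. Nothing says that the samples came from separate flies or cultures, and p-values set their differences against counting error alone. Named are all member genes and contigs, for each gene the 5 contigs with the most similar profile, and the listed pathway genes; the comparison of No.2 with the other samples and of even with odd numbers was chosen after the values were seen. Chi-square tests were adjusted by Benjamini-Hochberg at 0.05, with a minimum mean count of 5. On simulated counts with counting error alone, the test of single contigs called 84.5% of 200 contigs changed 2-fold in 4 of 8 samples and 0.0384% of the unchanged ones, among 23661 tested. The test of contig shares called 71.4% of 196 changed sets and 0.189% of unchanged ones, among 2842. Intervals and detection limits (3 counts) cover counting error only. Alternatives used TMM (edgeR 4.0.16) and DESeq2 1.42.0 size factors in R 4.3.3, other count minimums, other totals, fewer contigs and each sample left out. The remaining work was done in Python 3.11.15 (matplotlib 3.10.9, pandas 2.3.3, scipy 1.17.1, numpy 2.4.6). No sequences were used here.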

Additional observations from a re-analysis of the deposited data

Results flagged for a closer look

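Of 8 profiles with 1 value per sample that were checked, 5 had 1 sample well apart from the rest, each time No.2. Chance flags about 1 in 20 such profiles, but 20.5% of the 23597 contigs averaging 5 or more counts had a sample this far from the others, and in 12.1% No.2 was this far above. The contigs of *transformer* are part of its sum, so these are not separate observations. M_dom_rep_c20826 and M_dom_rep_c25572 were among the 8 only because of their counts in No.2, so that their standing apart there carries no weight. In No.2 *transformer* stood at 18.9 CPM, with 9.53 CPM as the highest of the other samples. *Transformer-2* stood at 15.5 CPM, next to 6.74 CPM, and *Sex-lethal* at 12.6 CPM, next to 6.11 CPM. The *transformer* contig M_dom_rep_c20826 stood at 2.69 CPM, next to 0.566 CPM, and M_dom_rep_c25572 at 2.21 CPM, next to 0.638 CPM. *Intersex* was highest in No.2 as well, but its gap to the next sample was not far in this sense. The labels give no difference between No.2 and the other samples, and what sets it apart was not tested.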

How the results depend on the processing

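The mean CPM of *transformer*, *transformer-2*, *Sex-lethal* and *intersex* moved by less than the SD over the 8 samples under every alternative run. Leaving out 1 of 8 samples cannot move a mean by its SD, so those settings could not have failed this. The SD also includes the high value of No.2. Over scalings and contig choices they lay between 6.56 and 10.5, 5.80 and 7.16, 4.99 and 6.23, and 5.79 and 7.05 CPM, and with each sample left out between 7.06 and 9.08, 4.49 and 6.27, 4.00 and 5.64, and 5.12 and 6.19 CPM. No.2 stayed the highest sample for all 4 genes under every scaling. The lowest sample of *transformer* and *transformer-2* was No.5 on totals but No.1 with TMM or DESeq2 size factors, and with both of these the even-numbered samples were all above the odd-numbered for *Sex-lethal* too. The contigs varying between samples numbered 11843 with a mean count of at least 50, since fewer were tested, and 4 of the members were then tested and called. With a mean count of at least 1, 9 members were tested and 8 called. With each sample left out, 5 to 7 members and 20786 to 22428 contigs were called, and 2098 to 2251 sets had unequal shares. Sets with unequal contig shares numbered 1174 with a mean count of at least 50, for the same reason. The chi-square of the *transformer* contigs was 37.7 without No.2, for 2 contigs on 6 degrees of freedom, and 82.7 to 112 without another sample, for 4 contigs on 18, so the first is not comparable in size with the others. The joining of the transformer-2 beta-like contig and the pooling of the minor *transformer* contigs were chosen after seeing the data. The alternative of contigs annotated from *M. domestica* gave no value for *intersex*. No paired analysis was possible because all 8 samples share 1 description. Depth limits *fruitless*, the beta-like contig and the minor *transformer* contigs.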

Other observations

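Words for sex outside the gene names used here occur in a few other annotations, which were chosen after their values were seen. M_dom_rep_c9405 (763 bp), annotated as the sex-regulated protein janus-A of *Culex quinquefasciatus*, had 12.8 ± 5.66 CPM (SD, n = 8), with 20.9 CPM in No.4 and 20.5 CPM in No.2 as the highest values and 5.96 CPM in No.1 as the lowest. M_dom_rep_c22821 (780 bp), matched to the sex-determining protein fem-1 of *Aedes aegypti*, had 31 counts in all, with 0.898 CPM in No.2 and none in No.7 and No.8. Of 2 short contigs matched to the complementary sex determiner of the bee *Apis cerana*, a relative of *transformer* that carries the sex signal in honeybees, M_dom_c20222 (131 bp) had 7 counts and M_dom_rep_c14102 (248 bp) had none.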
